A study of Caenorhabditis elegans with 34 samples.

Results

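The genes of the methionine cycle and of methylation-dependent phosphatidylcholine synthesis were followed in Caenorhabditis elegans adults sorted by biomarkers that predict remaining lifespan. The set was given by name and holds 10 genes: sams-1, sams-3, sams-4, sams-5, metr-1, ahcy-1, mthf-1, pmt-1, pmt-2 and cbs-1. All 10 were found among the 20223 features of the count table, and all 10 were among the 14245 genes with enough counts to be tested.

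RNA was sequenced from whole bodies of pooled animals sorted on day 5 of culture at 25 °C, by the brightness of 1 of 4 biomarkers. The question was whether animals predicted to live long and animals predicted to live short differ in the same way whichever biomarker sorted them. Animals of every group carried spe-9(hc88), a temperature-sensitive mutation of a sperm gene that leaves hermaphrodites sterile at this temperature. High and low mean the brightest 10% and the dimmest 10% of a population. Predicted long-lived groups were lin-4p::GFP high (6 libraries), mir-243p::GFP high (4), mir-240/786p::GFP low (4) and autofluorescence low (3). Their predicted short-lived counterparts were lin-4p::GFP low (6), mir-243p::GFP low (4), mir-240/786p::GFP high (4) and autofluorescence high (3), which gives 17 libraries on each side. Each GFP reporter is a microRNA promoter in its own integrated strain, and autofluorescence is natural red light from animals without a reporter. As the authors describe them, the lin-4 reporter shines mainly in the posterior intestine, the mir-243 reporter throughout the intestine and the mir-240/786p::GFP reporter in the spermatheca, whereas autofluorescence is seen in intestine and uterus. Lifespan itself was predicted from the biomarker and not measured in the sequenced animals. The authors report that other populations sorted by each biomarker did differ in survival in the predicted direction. In whole-body RNA fewer cells of a type and less RNA per cell cannot be told apart.

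The methionine cycle turns methionine into S-adenosylmethionine, the methyl donor of most methylation reactions, and then regenerates methionine from the homocysteine left behind. In C. elegans a large share of these methyl groups goes to phosphatidylcholine, because worms can build it by methylating phosphoethanolamine. Loss of sams-1 in this animal is known to lower phosphatidylcholine, to switch on fat synthesis through the transcription factor SBP-1 and to lengthen life.

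Libraries held 15.8 to 26.1 M counts (M, 1000000 counts), and levels are given as counts per M after scaling by the trimmed mean of M values (CPM). The gfp row checked the sorting in the 3 reporter strains, since its lowest high library stayed above its highest low library in each of them. Sorts 1 and 2 of lin-4p::GFP stood apart from sorts 3 to 6, in the members named below and in germline markers, so results were also computed without them. Because these sorts were picked partly on values of the members, a smaller p without them is not separate support for a member. As a check of the tissue, no gene of the 8 marker lists was at 0 in every library. Intestine markers summed to 137 to 392 CPM in predicted long-lived and 60.5 to 316 CPM in predicted short-lived libraries, and 4 of 6 sperm markers were too low to be tested.

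Each fold change sets predicted long-lived libraries over predicted short-lived ones and comes from edgeR's quasi-likelihood test with Benjamini-Hochberg adjustment over all 14245 genes. A gene counts as called when its adjusted p is under 0.0001, the threshold of the study, and results at 0.05 are given beside it. High and low libraries of a biomarker share sort numbers in the labels, and where a fit with the sort as a block changed a call, its adjusted p follows as the blocked value.

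Over all 4 biomarkers, 2 of the 10 genes were called, both lower in predicted long-lived animals. The S-adenosylmethionine synthetase gene sams-1 and the phosphoethanolamine methyltransferase gene pmt-2 fell in predicted long-lived animals, by 0.84 and 0.62 on the log2 scale. The synthetase genes sams-3 and sams-4, the methionine synthase gene metr-1 and the methyltransferase gene pmt-1 were higher at 0.05 only, by 0.25 to 0.56. The genes ahcy-1, mthf-1, cbs-1 and sams-5 passed neither threshold. In counts, 0 of 10 genes were called higher and 2 of 10 lower at 0.0001, where 19% and 21.6% of all genes tested were called in these directions. At 0.05 the counts were 4 higher and 2 lower, against 34.7% and 35.6% of all genes. The shares are near or below those of all genes. With the sort as a block, 2 genes (sams-3 and metr-1) were called higher at 0.0001, where 3064 of all 14245 genes were. DESeq2 called 1 higher and 2 lower, against 3266 and 3453 of all 14245 genes. In edgeR, 6 of the 10 had an unadjusted p under 0.05, for which no share of all genes is given, so nothing particular to the set is read from it. The median log2 fold change was -0.03 over the 10 genes and -0.01 over all genes tested, and the median size was 0.37 and 0.44.

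**Figure D1:**
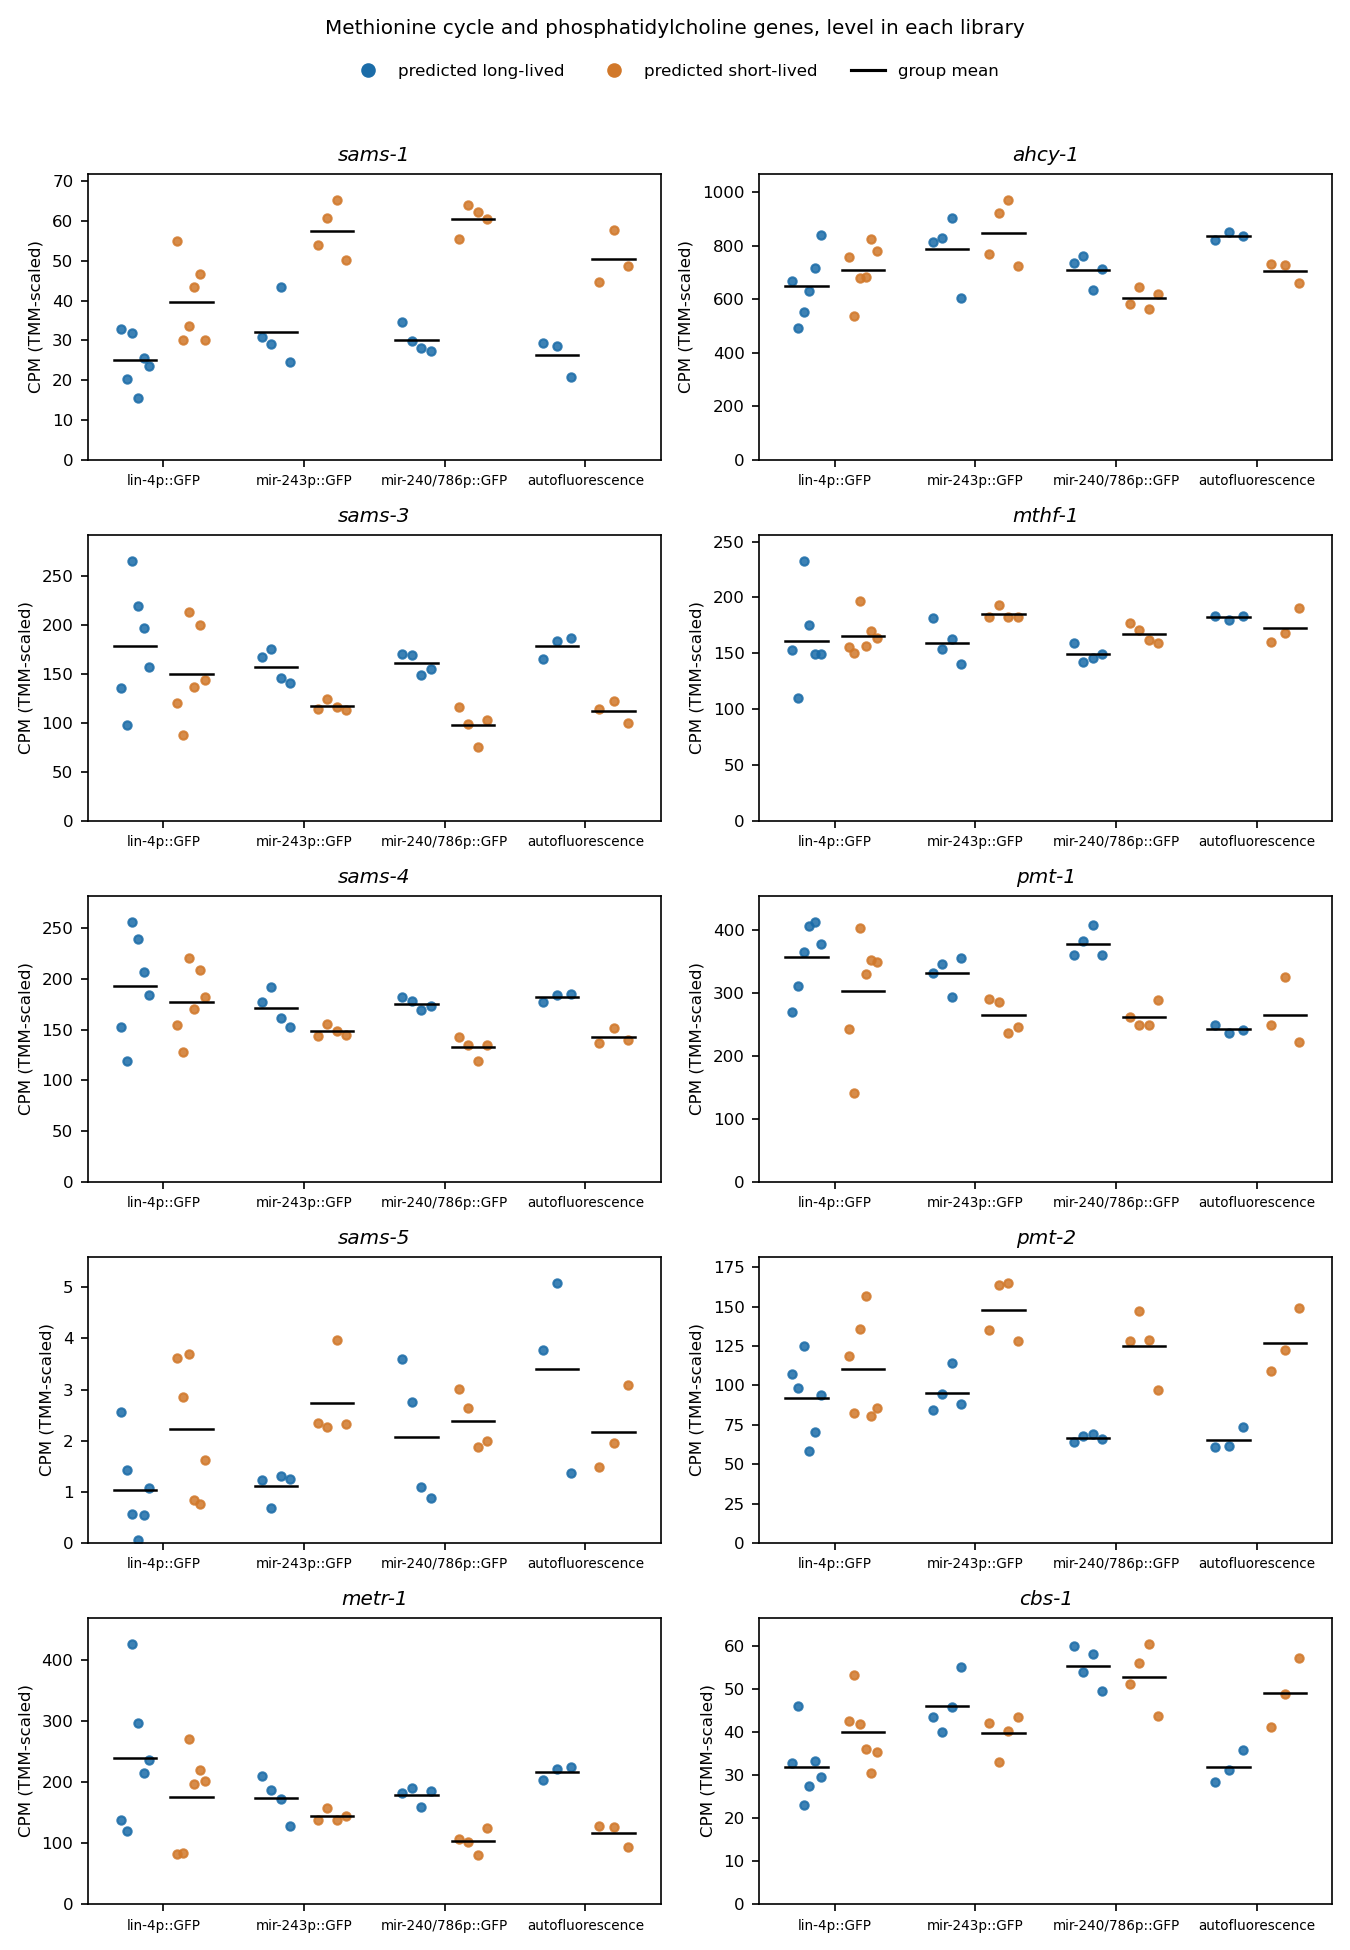
Level of each gene in every library (CPM, linear axes starting at 0), with predicted long-lived libraries in blue to the left of predicted short-lived libraries in orange and the group mean as a bar. In sams-1 and pmt-2 the blue means lie below the orange means for all 4 biomarkers, whereas in sams-3, sams-4 and metr-1 they lie above.

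sams-1 lies on chromosome X from 11965962 to 11969893 of WBcel235, on the plus strand, with 2256 bp of exons. In the mir-240/786p::GFP strain it measured 34.7, 29.9, 28.2 and 27.4 CPM in low (predicted long-lived) libraries and 55.5, 64.0, 62.4 and 60.6 CPM in high libraries. Sorts of mir-243p::GFP gave 30.9, 29.2, 43.4 and 24.5 CPM in high (predicted long-lived) and 54.003, 60.8, 65.4 and 50.2 CPM in low libraries. Every predicted long-lived library of these strains was below every predicted short-lived one. The autofluorescence sorts gave 29.5, 28.6 and 20.7 CPM in low (predicted long-lived) and 44.7, 57.7 and 48.7 CPM in high libraries, again without overlap. In the lin-4p::GFP strain, the lowest, median and highest values were 15.6, 24.6 and 33.0 CPM in high (predicted long-lived) and 30.0, 38.5 and 54.9 CPM in low libraries. Here the groups overlapped, yet the predicted long-lived library of each sort was the lower one.

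The pooled log2 fold change of sams-1 was -0.84 (SE 0.10, adjusted p = 3.27e-09), and it was lower in 17 of 17 sorts. By biomarker, mir-240/786p::GFP gave -1.01 (SE 0.20, adjusted p = 0.000121), autofluorescence -0.94 (SE 0.23, adjusted p = 0.00182), mir-243p::GFP -0.85 (SE 0.20, adjusted p = 0.00296) and lin-4p::GFP -0.67 (SE 0.16, adjusted p = 0.00121). Only in the mir-240/786p::GFP strain did the sort block change the call at 0.0001, with a blocked value of 3.18e-05. Ordered by mean level, the 4 predicted short-lived groups came first, from 60.6 CPM in mir-240/786p::GFP high to 39.7 CPM in lin-4p::GFP low. The 4 predicted long-lived groups followed, from 32.01 CPM in mir-243p::GFP high to 25.0 CPM in lin-4p::GFP high. Across the line between them, mir-243p::GFP high and lin-4p::GFP low differed by 7.73 CPM, less than the larger SD of 10.2 CPM. Only at mir-243p::GFP low over autofluorescence high, and at autofluorescence high over lin-4p::GFP low, did neighbours in this order differ by more than the larger of their SDs.

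sams-3 and sams-4 lie on chromosome IV on opposite strands (5848657 to 5850843 and 5844061 to 5846369), 2287 bp apart. They are close copies, so their separate counts are uncertain, since it is not given in the sources used here how reads matching both were counted. sams-3 also shares 18 bp of exon with C06E7.4 on the opposite strand. In mir-240/786p::GFP, sams-3 measured 171, 169, 149 and 155 CPM in low (predicted long-lived) and 116, 98.6, 75.1 and 103 CPM in high libraries. In the autofluorescence sorts it measured 165, 184 and 187 CPM in low (predicted long-lived) and 114.4, 123 and 99.5 CPM in high libraries. Predicted long-lived libraries were above predicted short-lived ones without overlap for these biomarkers, and likewise for mir-243p::GFP, where high libraries ranged from 141 to 176 CPM and low libraries from 113.6 to 124 CPM.

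In the lin-4p::GFP strain, sams-3 spread widely, with 97.9, 177 and 266 CPM as lowest, median and highest in high and 87.2, 141 and 213 CPM in low libraries. Most of this spread lay between sorts: sorts 1 and 2 held 97.9 to 135 CPM when high and 87.2 to 120 CPM when low, and sorts 3 to 6 held 157 to 266 and 137 to 213 CPM. The pooled log2 fold change was 0.48 (SE 0.11, adjusted p = 0.000225, blocked value 1.36e-06), and sams-3 was higher in 16 of 17 sorts. Without sorts 1 and 2 of lin-4p::GFP, picked partly on values such as these, it was 0.52 (adjusted p = 1.04e-06). Within biomarkers it was 0.72 (SE 0.22, adjusted p = 0.00782, blocked value 6.18e-06) for mir-240/786p::GFP and 0.67 (SE 0.25, adjusted p = 0.0332, blocked value 9.23e-05) for autofluorescence. For mir-243p::GFP and lin-4p::GFP it was 0.43 and 0.25, with adjusted p-values of 0.159 and 0.252 (blocked values 0.00293 and 0.0167, which pass 0.05).

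sams-4 followed sams-3 with smaller differences. It averaged 182 ± 31.6 CPM in predicted long-lived and 154 ± 27.4 CPM in predicted short-lived libraries (SD, n = 17 each). The groups did not overlap in mir-240/786p::GFP (169 to 182 CPM in low against 119.4 to 143 CPM in high libraries) or in the autofluorescence sorts (177 to 186 CPM in low against 137 to 152 CPM in high libraries). Its pooled log2 fold change was 0.25 (SE 0.08, adjusted p = 0.00465), and it was higher in 14 of 17 sorts. For autofluorescence it was 0.35 (adjusted p = 0.118, blocked value 0.0042). Without sorts 1 and 2 of lin-4p::GFP the pooled value was 0.29 and called (adjusted p = 7.75e-06). With the counts of both copies summed into 1 row, the log2 fold change was 0.35 (SE 0.09, adjusted p = 0.000906).

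sams-5, on chromosome IV from 6277433 to 6279522, was the least abundant gene of the set, with 1 to 97 counts per library. In mir-243p::GFP it measured 1.23, 0.675, 1.31 and 1.26 CPM in high (predicted long-lived) and 2.35, 2.26, 3.97 and 2.33 CPM in low libraries, without overlap. In the autofluorescence sorts the order turned round, with 3.76, 5.09 and 1.37 CPM in low (predicted long-lived) and 1.48, 1.94 and 3.09 CPM in high libraries, which overlapped. The pooled log2 fold change was -0.58 (SE 0.29, adjusted p = 0.0748, blocked value 0.0192), and sams-5 was lower in 13 of 17 sorts. It was -1.27 for mir-243p::GFP (adjusted p = 0.102, blocked value 0.025) and -1.04 for lin-4p::GFP (adjusted p = 0.0669, blocked value 0.0139). A difference between sams-5 and sams-1 was not tested.

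Per kilobase of exon, the scale on which genes can be compared, sams-4 averaged 88.9 and sams-3 73.4 CPM per kb over all 34 libraries, sams-1 averaged 17.5 and sams-5 1.38 CPM per kb. sams-1 made up 6.56% ± 1.75 of the summed sams level in predicted long-lived and 13.9% ± 4.06 in predicted short-lived libraries (SD, n = 17 each). sams-3 made up 43.3% ± 1.87 and 36.4% ± 3.66 on the same scale. The uncertainty of the separate sams-3 and sams-4 counts given above holds for these shares and for the ratio that follows. The log2 ratio of sams-1 to sams-4 within a library, which does not depend on scaling between libraries, averaged -2.97 ± 0.44 in predicted long-lived and -1.88 ± 0.51 in predicted short-lived libraries. The difference of -1.09 had the smallest p that 100000 resamples can give (two-sided permutation within biomarkers, p = 1e-05, adjusted over 3 ratios 1.5e-05), and the ratio was lower in 17 of 17 sorts. Within single biomarkers the exact permutation p was 0.0238 for lin-4p::GFP, 0.0286 for both mir-240/786p::GFP and mir-243p::GFP, and 0.1 for autofluorescence, where the last values are the smallest that 4 against 4 and 3 against 3 libraries allow. Adjusted over 12 tests, the exact p-values for these ratios were 0.0686 or more, so no biomarker alone passed 0.05.

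metr-1 encodes the vitamin B12-dependent methionine synthase, which remakes methionine from homocysteine, and lies on chromosome II from 10926561 to 10931078. In mir-240/786p::GFP it measured 183, 191, 159 and 185 CPM in low (predicted long-lived) and 106, 102, 80.7 and 125 CPM in high libraries. In the autofluorescence sorts it measured 203, 222 and 225 CPM in low (predicted long-lived) and 129, 127 and 93.6 CPM in high libraries. Neither pair of groups overlapped. In lin-4p::GFP, metr-1 ranged from 119.2 to 427 CPM in high and from 81.6 to 270 CPM in low libraries, where sorts 1 and 2 held the lowest values of both groups (119.2 to 138 CPM when high, 81.6 to 83.4 CPM when low).

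Pooled, the log2 fold change of metr-1 was 0.56 (SE 0.15, adjusted p = 0.00112, blocked value 2.79e-06), and it was higher in 15 of 17 sorts. Leaving out sorts 1 and 2 of lin-4p::GFP, picked partly on values such as these, gave 0.58 (adjusted p = 3.41e-06). By biomarker it was 0.79 (SE 0.31, adjusted p = 0.0313, blocked value 4.25e-05) for mir-240/786p::GFP and 0.90 (SE 0.35, adjusted p = 0.041, blocked value 8.23e-05) for autofluorescence. The mir-243p::GFP value was 0.27 (adjusted p = 0.558) and the lin-4p::GFP value 0.44 (adjusted p = 0.141). The blocked value for lin-4p::GFP, 0.00149, passed 0.05.

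The genes of the steps on either side of metr-1 passed neither threshold in the pooled fit. mthf-1 encodes methylenetetrahydrofolate reductase, which supplies the methyl group that methionine synthase uses, and shares 11 bp of exon with C06A8.6 on the opposite strand. It averaged 162 ± 26.7 CPM in predicted long-lived and 172 ± 14.3 CPM in predicted short-lived libraries (SD, n = 17 each), a log2 fold change of -0.09 (95% interval -0.21 to 0.04, adjusted p = 0.209). ahcy-1 encodes S-adenosylhomocysteine hydrolase, which clears the product left by methylation, and was the most abundant gene of the set at 471 CPM per kb. It averaged 729 ± 118 CPM in predicted long-lived and 717 ± 118 CPM in predicted short-lived libraries, a log2 fold change of 0.03 (95% interval -0.12 to 0.17, adjusted p = 0.743). These intervals leave room for pooled changes of at most about 0.21 in either direction, but single biomarkers had wider ones. For ahcy-1 the log2 fold change was 0.24 for both autofluorescence (interval up to 0.57) and mir-240/786p::GFP (up to 0.52). It was -0.13 for lin-4p::GFP and -0.11 for mir-243p::GFP. The interval of mthf-1 reached down to -0.48 for mir-243p::GFP.

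cbs-1 encodes cystathionine beta-synthase, which takes homocysteine out of the cycle toward cysteine, and lies on chromosome X from 10054275 to 10057528. Only in the autofluorescence sorts did it pass 0.05 in the unblocked fit. There it measured 28.4, 31.1 and 35.8 CPM in low (predicted long-lived) and 41.2, 48.9 and 57.2 CPM in high libraries, without overlap, and the log2 fold change was -0.63 (SE 0.19, adjusted p = 0.0102). In lin-4p::GFP it was -0.32 (SE 0.14, adjusted p = 0.0516, blocked value 0.00492). The mir-240/786p::GFP value was 0.07 (adjusted p = 0.751) and the mir-243p::GFP value 0.22 (adjusted p = 0.369), so the pooled log2 fold change was -0.16 (SE 0.09, adjusted p = 0.14) with 7 sorts higher and 10 lower.

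metr-1 and cbs-1 compete for the same homocysteine. Their log2 ratio per kilobase averaged 1.54 ± 0.80 in predicted long-lived and 0.82 ± 0.76 in predicted short-lived libraries (SD, n = 17 each), a difference of 0.73 (permutation within biomarkers with 100000 resamples, two-sided p = 0.00407). It was higher in 14 of 17 sorts. By biomarker the difference was 1.53 in the autofluorescence sorts, 0.79 in lin-4p::GFP, 0.73 in mir-240/786p::GFP and 0.03 in mir-243p::GFP. None passed 0.05 in the exact permutation test (adjusted p from 0.114 to 0.914). Autofluorescence could not pass, since 3 against 3 libraries allow no exact p under 0.1. Its predicted long-lived libraries lay above its predicted short-lived ones without overlap.

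**Figure D2:**
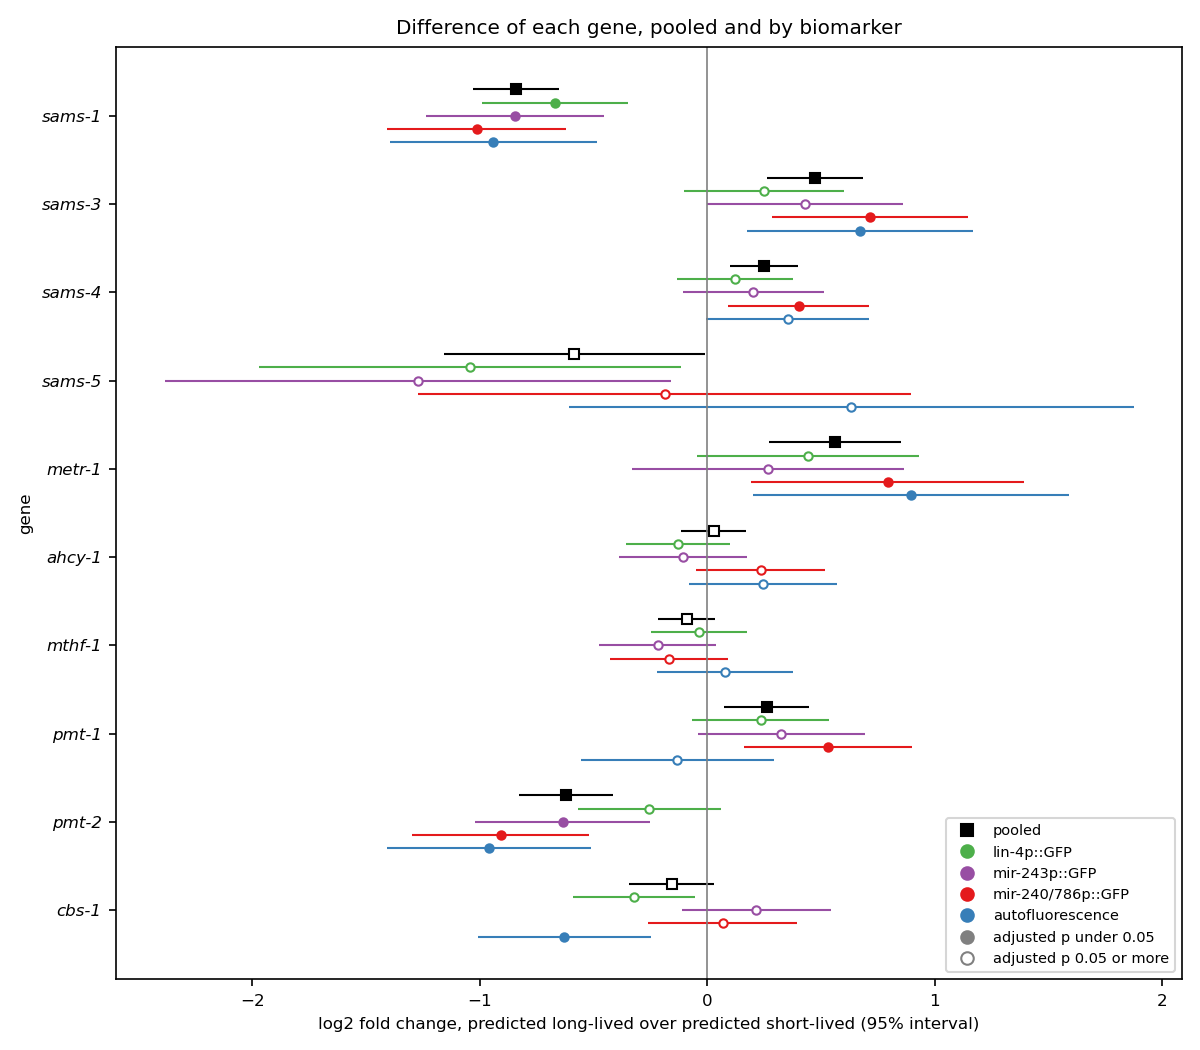
Log2 fold change of each gene, predicted long-lived over predicted short-lived, pooled (squares) and by biomarker (circles), with 95% intervals of the edgeR fit without the sort block; filled symbols have an adjusted p under 0.05. All 5 values of sams-1 are filled and lie between -1.01 and -0.67, and sams-5 has the widest intervals.

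The methyltransferase genes that lead to phosphatidylcholine parted in most sorts. PMT-1 adds the first methyl group to phosphoethanolamine and PMT-2 adds the remaining ones, and both use S-adenosylmethionine. pmt-2 lies on chromosome V from 4628580 to 4635263 and pmt-1 on chromosome II from 5278090 to 5282523. In mir-240/786p::GFP, pmt-2 measured 63.9, 67.8, 69.2 and 66.3 CPM in low (predicted long-lived) and 128, 147, 129 and 97.2 CPM in high libraries. In mir-243p::GFP it measured 84.2, 94.5, 114.4 and 87.9 CPM in high (predicted long-lived) and 135, 164, 165 and 128 CPM in low libraries. In the autofluorescence sorts it measured 60.6, 61.5 and 73.8 CPM in low (predicted long-lived) and 109, 123 and 149 CPM in high libraries. None of these pairs of groups overlapped. In lin-4p::GFP they did, with 58.6, 96.2 and 125 CPM as lowest, median and highest in high (predicted long-lived) and 80.8, 102 and 157 CPM in low libraries.

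The pooled log2 fold change of pmt-2 was -0.62 (SE 0.11, adjusted p = 3.94e-06), and it was lower in 15 of 17 sorts, with both exceptions in lin-4p::GFP. It was -0.91 (SE 0.20, adjusted p = 0.00036) for mir-240/786p::GFP, -0.64 (SE 0.20, adjusted p = 0.0189) for mir-243p::GFP and -0.96 (SE 0.23, adjusted p = 0.00138) for autofluorescence. For lin-4p::GFP it was -0.25 (SE 0.16, adjusted p = 0.191). Whether the size differed between biomarkers did not pass the test (interaction adjusted p = 0.242).

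pmt-1 measured 360, 383, 408 and 360 CPM in mir-240/786p::GFP low (predicted long-lived) and 261, 248, 249 and 288 CPM in high libraries. In mir-243p::GFP it measured 332, 346, 293 and 355 CPM in high (predicted long-lived) and 290, 286, 236 and 246 CPM in low libraries. Both pairs were apart, whereas the autofluorescence groups overlapped, with 249, 236 and 240.82 CPM in low (predicted long-lived) and 249, 325 and 222 CPM in high libraries. The pooled log2 fold change was 0.26 (SE 0.09, adjusted p = 0.0147), and pmt-1 was higher in 15 of 17 sorts. Within biomarkers only the mir-240/786p::GFP value of 0.53 (SE 0.19) passed 0.05 without the block, with an adjusted p of 0.0195 and of 2.42e-05 without sorts 1 and 2 of lin-4p::GFP.

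The log2 ratio of pmt-2 to pmt-1 per kilobase averaged -1.79 ± 0.45 in predicted long-lived and -0.89 ± 0.46 in predicted short-lived libraries (SD, n = 17 each). The difference of -0.90 again had the smallest p that 100000 resamples can give (permutation within biomarkers, two-sided, p = 1e-05), and the ratio was lower in 15 of 17 sorts. As linear ratios, the median was 0.298 in predicted long-lived and 0.581 in predicted short-lived libraries. In mir-240/786p::GFP the difference reached -1.42 and the libraries of the low group differed by an SD of only 0.05. Adjusted exact permutation p-values within biomarkers were 0.0686 for mir-240/786p::GFP and mir-243p::GFP, 0.133 for autofluorescence and 0.161 for lin-4p::GFP. Except in lin-4p::GFP, the groups did not overlap. There the unadjusted p was the smallest possible, 0.0286 for 4 against 4 and 0.1 for 3 against 3 libraries.

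**Figure D3:**
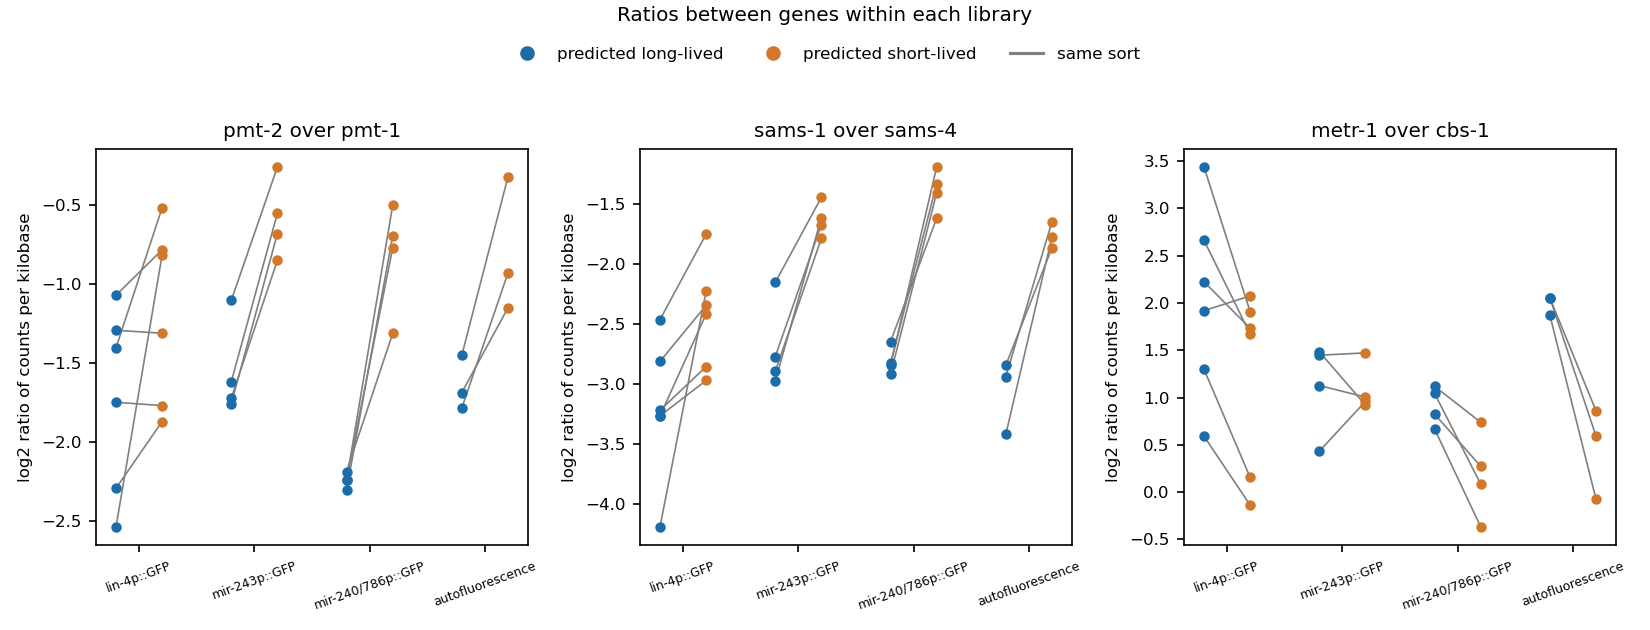
Log2 ratio of counts per kilobase within each library for pmt-2 over pmt-1, sams-1 over sams-4 and metr-1 over cbs-1, with predicted long-lived (blue, left) and predicted short-lived (orange, right) libraries of the same sort joined by a line. The sams-1 to sams-4 lines rise to the right in 17 of 17 sorts and the pmt-2 to pmt-1 lines in 15 of 17.

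Counted by biomarker at 0.0001, none of the 10 genes was called in either direction. Of all genes tested, 4.4% were called higher and 9.81% lower in lin-4p::GFP, and 0.505% and 0.309% in mir-243p::GFP. The shares were 6.46% and 8.63% in mir-240/786p::GFP, and 2.03% and 5.15% in autofluorescence. An unadjusted p under 0.05 is a looser threshold, and no share of all genes is given for it. It was passed by 3 of the 10 in lin-4p::GFP, 3 in mir-243p::GFP, 6 in mir-240/786p::GFP and 5 in autofluorescence. DESeq2 also called none of the 10 for lin-4p::GFP, mir-243p::GFP or autofluorescence, and called sams-1 and pmt-2 lower for mir-240/786p::GFP. Over all 14245 genes DESeq2 called 1889 lower for mir-240/786p::GFP. With the sort as a block, edgeR called 2 higher and 1 lower for mir-240/786p::GFP and 2 higher for autofluorescence. Over all genes this blocked fit called 1562 higher and 1791 lower for mir-240/786p::GFP and 884 higher for autofluorescence.

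At 0.05, lin-4p::GFP gave 0 genes higher and 1 lower (24.5% and 25.8% of all genes tested). The mir-243p::GFP comparison gave 0 higher and 2 lower (10.6% and 13%). In mir-240/786p::GFP there were 4 higher and 2 lower (24.6% and 26.5%), and in autofluorescence 2 higher and 3 lower (21.3% and 21.7%). With the sort as a block these counts grew to 3 higher and 3 lower in lin-4p::GFP (60.8% of all genes passed in either direction) and to 1 higher and 3 lower in mir-243p::GFP (37.3%). The blocked counts were 5 higher and 2 lower in mir-240/786p::GFP (60.5%), and in the autofluorescence sorts 4 higher and 3 lower (54.5%). Pooled, the block gave 4 higher and 3 lower (74.5% of all genes passed in either direction). Blocked values that crossed 0.05 and are not given above were 0.0389 for pmt-1 in lin-4p::GFP, and 0.0176 (mir-240/786p::GFP) and 0.0318 (autofluorescence) for ahcy-1. Of the 10, sams-1 was the only gene lower at 0.05 for all 4 biomarkers.

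Whether a difference varied between biomarkers was tested as an interaction with a threshold of 0.05. In edgeR, 0 of 10 genes passed, where 1.74% of all genes did. An unadjusted p under 0.05, with no share of all genes to set beside it, was found for 2 of 10 (cbs-1 and pmt-2). DESeq2 called 1, cbs-1, where 1025 of all 14245 genes passed. With the sort as a block, cbs-1 (adjusted p = 0.00865), ahcy-1 (adjusted p = 0.0255) and sams-3 (adjusted p = 0.0359) passed. In the blocked fit 2284 of all 14245 genes did. For ahcy-1 the log2 fold changes without the block were 0.24 for both autofluorescence and mir-240/786p::GFP, against -0.11 for mir-243p::GFP and -0.13 for lin-4p::GFP. sams-1 had an interaction adjusted p of 0.805, and its 4 values lay within 0.34 of each other on the log2 scale.

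Levels were also compared between biomarkers, with predicted lifespan as a term. None of the 10 passed 0.0001 in edgeR or DESeq2, where 10.3% of all genes did in edgeR. An unadjusted p under 0.05, with no share of all genes to set beside it, was found for 5 of 10. cbs-1 (adjusted p = 0.00188), sams-1 (adjusted p = 0.0102) and ahcy-1 (adjusted p = 0.0385) passed 0.05, where 5890 of all 14245 genes did. Without sorts 1 and 2 of lin-4p::GFP, sams-3, sams-4 and metr-1 passed 0.0001, the largest of their adjusted p-values being 5.18e-05. Those sorts were picked partly on the values of these genes. In that fit 3242 of all 14245 genes passed. Strain, culture and sequencing batch cannot be told apart in these levels.

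The members fell into sets by how they varied between libraries of the same group. Deviations of log2 CPM from the group mean correlated between sams-3 and sams-4 with r = 0.97 (Spearman 0.94) and between sams-3 and metr-1 with r = 0.89 (Spearman 0.79), over 34 libraries. Between metr-1 and cbs-1 the correlation was -0.75 (Spearman -0.74), and between sams-1 and sams-4 it was 0.05 (Spearman 0.01). These are descriptions, since values of 1 library share its depth and scaling. For sams-3 and sams-4 the treatment of reads that match both copies is also unknown, and its part in their correlation was not tested. In the 22 libraries without the lin-4p::GFP strain the first 3 correlations were 0.88, 0.79 and -0.73.

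Markers of the germline moved with several of these genes. The 9 germline markers, among them glp-1 and gld-1, summed to 1952 to 5267 CPM in predicted long-lived and 1076 to 3893 CPM in predicted short-lived libraries and were higher in 15 of 17 sorts. All 9 were higher at 0.05 (34.7% of all genes tested) and 2 of 9 at 0.0001 (19%). The 6 oocyte markers were higher in 17 of 17 sorts, with 4 of 6 higher at 0.0001 and all 6 at 0.05. In lin-4p::GFP, sorts 1 and 2 held 1363 to 2263 CPM of germline markers and sorts 3 to 6 held 3008 to 5267 CPM. Within groups, deviations of metr-1 followed those of the summed germline markers with r = 0.94 (Spearman 0.92). The value was 0.91 without the 2 libraries farthest from the median of the markers and 0.90 in the 22 libraries without lin-4p::GFP. For sams-3 these correlations were 0.83 (Spearman 0.73), 0.74 and 0.64, and for cbs-1 they were -0.82 (Spearman -0.78), -0.75 and -0.83. For pmt-1 the correlation of 0.71 (Spearman 0.67) stayed at 0.64 without the 2 farthest libraries but was 0.24 without lin-4p::GFP, so it rests on that strain. For sams-4 they were 0.82 (Spearman 0.74), 0.75 and 0.57. For the called genes the values were nearer 0. They were 0.02 (Spearman 0.06), -0.18 and 0.29 for sams-1, which changed sign, and -0.11 (Spearman -0.14), -0.22 and -0.27 for pmt-2. The part of germline content in the differences of metr-1, sams-3, sams-4 and cbs-1 was not tested.

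**Figure D4:**
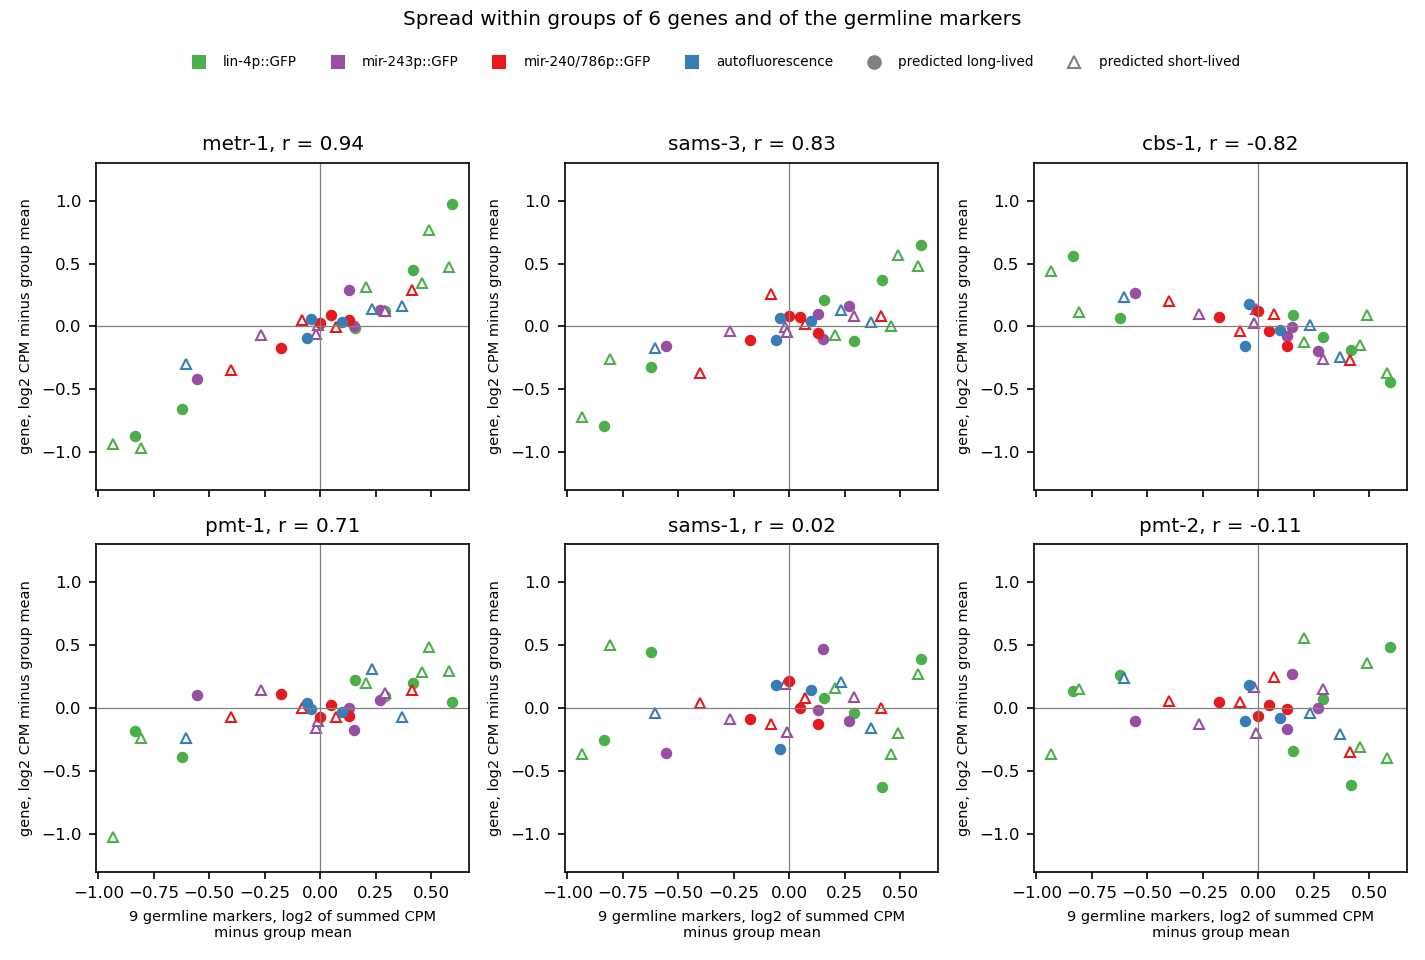
Deviation of 6 genes from their group mean (log2 CPM, vertical) against the deviation of the summed 9 germline markers (log2, horizontal), 1 point per library, with predicted long-lived libraries as filled circles and predicted short-lived libraries as open triangles. metr-1 and sams-3 climb along the marker axis and cbs-1 descends, whereas sams-1 (r = 0.02) and pmt-2 (r = -0.11) have correlations nearer 0.

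Intestine markers were also higher in predicted long-lived animals, in 17 of 17 sorts, with 3 of 7 called higher (19% of all genes tested). At 0.05, 4 of 7 were higher (34.7% of all genes tested). Their median log2 fold change was 0.78, and ges-1, an intestinal esterase among those called, had 2.01. Called lower were 3 of 5 markers of hypodermis and 3 of 6 of neurons, where 21.6% of all genes tested were. Of 5 body wall muscle markers, 1 was called lower and 2 were higher at 0.05. Their median log2 fold change was 0.05, and their sum was higher in 12 of 17 sorts. Of 4 tested early embryo markers 1 was called higher and 1 lower, and at 0.05, 3 were higher and 1 lower (34.7% and 35.6% of all genes tested). Their median log2 fold change was 0.56, yet the sum of all 6 listed was lower in 16 of 17 sorts. The 2 tested sperm markers passed neither threshold. Within groups, sams-1 and pmt-2 correlated with the intestine markers at r = 0.13 (Spearman 0.11) and 0.07 (Spearman 0.06), which became 0.03 and 0.06 without the 2 farthest libraries and 0.23 and -0.23 without lin-4p::GFP. Deviations of cbs-1 ran against the intestine markers with r = -0.69 (Spearman -0.72), -0.60 without the 2 farthest libraries and -0.79 without lin-4p::GFP. For metr-1 these values were 0.64 (Spearman 0.65), 0.57 and 0.65, and for ahcy-1 they were 0.54 (Spearman 0.44), 0.47 and 0.62. With the germline markers ahcy-1 had similar values of 0.53 (Spearman 0.42), 0.32 and 0.68. Against the intestine markers, sams-3, sams-4 and pmt-1 had r = 0.47, 0.44 and 0.52, and 0.33, 0.26 and 0.12 without lin-4p::GFP. For mthf-1 and sams-5 the r was 0.30 and -0.12, and 0.03 and -0.20 without lin-4p::GFP. What these tissues contribute to the differences of the 10 genes was not tested.

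The genes whose pattern was most like that of sams-1 over the 34 libraries were casy-1, act-4, ptr-1, F56B3.2 and ham-2, with Pearson correlations of log2 CPM from 0.889 to 0.892. pmt-2 came at place 1379 of 14245 with r = 0.73. For pmt-2 the most alike were ptr-23, Y15E3A.4, nac-1, cyp-14A5 and acdh-9, with correlations from 0.789 to 0.821, and sams-1 came at place 32. With group means subtracted, the highest were ptr-25, T07D4.2, ptc-3, ZK84.1 and cfh-1 for sams-1 (0.710 to 0.777) and ptr-23, C18A11.2, F46H5.3, ZK1055.4 and ucr-2.1 for pmt-2 (0.693 to 0.720), and the correlation between sams-1 and pmt-2 was 0.47.

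Genes of neighbouring pathways spanned a wider range. In all list counts that follow, the shares of all genes called at 0.0001 are again 19% higher and 21.6% lower, and nothing particular to a list is read from its count. Of 10 genes of the folate cycle and methyl supply, 4 rose and 1 fell. gldc-1, a subunit of the glycine cleavage system, had 25.1, 29.5 and 51.1 CPM as lowest, median and highest in predicted long-lived and 3.10, 10.96 and 20.6 CPM in predicted short-lived libraries, and rose by 1.67 on the log2 scale (SE 0.16, adjusted p = 6.13e-11). atic-1, of purine synthesis, rose by 1.41 (SE 0.13), and dao-3, a folate dehydrogenase, fell by 0.51 (SE 0.10). The groups of gldc-1 did not overlap.

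Of 14 genes of vitamin B12 use and propionate breakdown, 6 rose and 1 fell, with a median log2 fold change of 0.47. mce-1, methylmalonyl-CoA epimerase, rose by 0.84 (SE 0.10, higher in 17 of 17 sorts), ech-6, an enoyl-CoA hydratase of the propionate shunt, by 0.57 (SE 0.08), and the transporter gene mrp-5 fell by 0.63 (SE 0.09). Of 4 regulators, the nuclear receptor gene nhr-68 rose by 1.15 (SE 0.17) and nhr-10 fell by 0.77 (SE 0.10). Of 12 tested genes of transsulfuration and sulfur use, 3 rose and 1 fell. cysl-3, a cysteine synthase-like gene, rose by 0.76 (SE 0.07) and cth-2, cystathionine gamma-lyase, by 0.65 (SE 0.10), both in 17 of 17 sorts. cbs-2, a second cystathionine beta-synthase gene, fell by 1.47 (SE 0.15) and measured 1.103 to 4.94 CPM in predicted long-lived and 4.31 to 17.1 CPM in predicted short-lived libraries.

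On the route from choline and ethanolamine to phospholipids, 3 of 14 tested genes rose and 3 fell. pcyt-1, the enzyme that activates phosphocholine with CTP, had 47.4, 60.7 and 90.1 CPM as lowest, median and highest in predicted long-lived and 71.4, 114.6 and 177 CPM in predicted short-lived libraries, and fell by 0.93 (SE 0.09, adjusted p = 9.63e-11). pssy-1, a phosphatidylserine synthase, fell by 0.88 (SE 0.07). The choline kinase gene cka-1 rose by 0.53 (SE 0.07) and the phosphotransferase gene cept-1 by 0.44 (SE 0.09). The other 4 tested choline kinase genes had log2 fold changes between -0.24 (cka-2) and 0.03 (ckb-1), and none passed 0.05.

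In a list of methyltransferases and polyamine genes, not all of whose products use S-adenosylmethionine, 3 of 14 tested genes rose and 3 fell. smd-1, S-adenosylmethionine decarboxylase, rose by 2.05 (SE 0.21), with 10.8 to 35.0 CPM in predicted long-lived and 0.905 to 14.9 CPM in predicted short-lived libraries, and the amine methyltransferase gene anmt-3 rose by 1.84 (SE 0.15). A pair of other polyamine genes fell: spds-1, spermidine synthase, by 1.56 (SE 0.19) and odc-1, ornithine decarboxylase, by 1.50 (SE 0.13), each in 17 of 17 sorts. Of 9 genes of the SBP-1 lipogenic program, 3 rose and 1 fell. The fatty acid desaturase genes fat-7 and fat-5 rose by 2.77 (SE 0.24) and 2.26 (SE 0.28). fasn-1, fatty acid synthase, fell by 1.75 (SE 0.16), with a median of 397 CPM in predicted long-lived and 1493 CPM in predicted short-lived libraries. sbp-1 itself had a log2 fold change of 0.40 (adjusted p = 0.0153) and was not called.

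**Figure D5:**
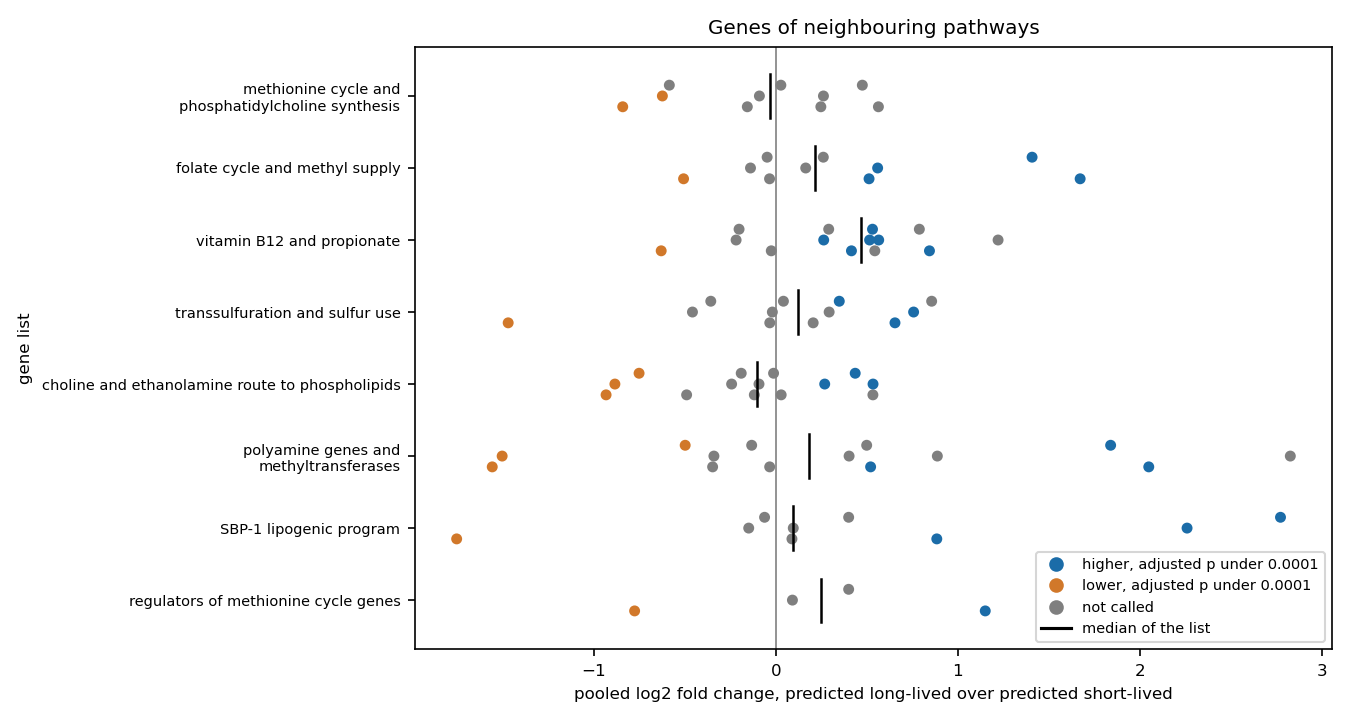
Pooled log2 fold change of each tested gene, predicted long-lived over predicted short-lived, in the set of 10 and in 7 lists of neighbouring pathways, coloured by the call at an adjusted p under 0.0001, with the median of each list as a bar. The 10 genes span -0.84 to 0.56, whereas the SBP-1 list spans -1.75 to 2.77.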

How the data were processed

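The authors deposited raw read counts per gene for 34 libraries, without normalization. Per the submitters' processing notes, STAR 2.7.3a and featureCounts were used with WBcel235; annotation version, strand setting and treatment of multiply matching reads are not given in the sources used here. Overlaps and lengths came from Ensembl release 115 (WBcel235). Symbols were found for 19708 of 20223 identifiers. A gene was kept where 26 or more of the 34 libraries (75%) had 5 counts or more. edgeR 4.0.16 (quasi-likelihood F-test, trimmed mean of M values, R 4.3.3) fitted a pooled model with the biomarker as a term, which also gave the level test. A model of 8 group means over all libraries gave the single biomarkers and the interaction. The batch term of the study is not in the labels. Log2 CPM used a prior count of 2.

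The 10 genes and all lists were chosen with earlier results of these data known. Named list genes are, per direction, up to 2 called genes with the largest pooled log2 fold change. sbp-1 stands in 2 lists. The members' correlations with markers were added after the values were seen. Samples carry no label of separate cultures beyond the sort, so p-values measure spread between sorted libraries.

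High and low libraries with the same sort number were taken to come from 1 sorting run, which the labels do not state. Counts of sorts and the block rest on this pairing. In 12 of 17 sorts the predicted long-lived library correlated best with the predicted short-lived library of its own number. Deviations of paired libraries correlated with r from -0.07 to 0.57 over 17 sorts (median 0.19, over 0.1 in 11), against a median of -0.05 between different numbers. No pair of replicates agreed within counting noise (chi-square 10.4 to 257 per degree of freedom over 60 pairs). A floor of 3 counts is 0.190 CPM in the smallest library and 0.115 CPM in the largest, which covers counting error only. Alternatives were DESeq2 1.42.0, its size factors, library totals, other filters, the sort block, sams-3 and sams-4 summed, single-biomarker fits, sorts 1 and 2 of lin-4p::GFP left out, and each library left out.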

Additional observations from a re-analysis of the deposited data

Results flagged for a closer look

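In 78 groups of 4 to 6 libraries, 1 value was tested for standing far from the rest of its group, and chance alone marks about 1 group in 20. There were 4 such values, all in the mir-243p::GFP strain. sams-5 measured 0.675 CPM in high sort 2 (log2 CPM -0.38, the others 0.41 to 0.49) and 3.97 CPM in low sort 3 (log2 CPM 2.02, the others 1.24 to 1.29). mthf-1 measured 193 CPM in low sort 2 (log2 CPM 7.60, the others 7.51 to 7.52). The log2 ratio of metr-1 to cbs-1 was 1.47 in low sort 2, with the others at 0.92 to 1.00.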

How the results depend on the processing

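At 0.0001, the pooled fit called 0 of 10 genes higher. It called 1 with library totals, without a low-count filter or with DESeq2, 2 with the sort as a replicate block and 3 without sorts 1 and 2 of lin-4p::GFP (0 to 1 when any 1 library was left out). Over all genes, the pooled fit called 2707 higher, library totals 2479, no filter 2987 and DESeq2 3266. The block called 3064 higher, and leaving out those sorts gave 3066. The 2 members called lower stayed 2 in every alternative. For mir-240/786p::GFP, 0 genes were called in either direction. The replicate block gave 2 higher and 1 lower, leaving out sorts 1 and 2 of lin-4p::GFP gave 2 higher and 1 lower, and its libraries alone or DESeq2 gave 2 lower (0 to 1 lower with 1 library left out). For autofluorescence the block gave 2 higher. The interaction, 0 genes at 0.05, became 3 with the block, 2 without those sorts and 1 with DESeq2 (0 to 1 with 1 library left out), and the level test became 3 without those sorts. The cause was not tested. Over all genes, the interaction count was 248, but 14 with library totals, 2284 with the block, 2058 without those sorts and 1025 with DESeq2. The level count of 1461 was 3242 without those sorts and 2684 with DESeq2. Genes called higher and lower for mir-243p::GFP numbered 72 and 44, but 167 and 258 with the block, 355 and 271 without those sorts, 388 and 325 with DESeq2, 38 and 18 with library totals and 38 and 15 from its libraries alone. For autofluorescence 289 and 734 became 884 and 1262, 1013 and 1377, and 726 and 1308 under the first 3 of these, and 0 and 0 from its libraries alone (7754 genes at 0.05 there). For mir-240/786p::GFP 920 and 1229 became 1781 and 1901 without those sorts and 1465 and 1889 with DESeq2, and the block gave 1562 higher. For lin-4p::GFP 627 and 1398 became 142 and 920 without those sorts and 15 and 266 from its libraries alone, with 959 higher under the block and 1232 under DESeq2.

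The block changed no other call of the 10 genes at 0.0001, and the level test could not be fitted with it. No gene lost a call or turned round once called. Values that changed sign were small and never called. mthf-1 for lin-4p::GFP was 0.0088 without a filter and 0.021 without those sorts, and ranged from -0.15 to 0.042 with 1 library left out. With 1 library left out, ahcy-1 for mir-243p::GFP ranged from -0.18 to 0.037, sams-5 and cbs-1 for mir-240/786p::GFP from -0.58 to 0.059 and from -0.012 to 0.14, pmt-1 for autofluorescence from -0.24 to 0.040, and the metr-1 to cbs-1 ratio for mir-243p::GFP from -0.087 to 0.26. With sign flips within sorts, the pooled ratio differences had exact p-values of 6.1e-05 (pmt-2 to pmt-1), 1.53e-05 (sams-1 to sams-4) and 0.000549 (metr-1 to cbs-1).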
